A study of Mus musculus with 20 samples.

Results

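The genes described here are Cd74, H2.Aa, H2.Ab1 and H2.Eb1, which encode the MHC class II antigen presentation proteins of the mouse, measured in follicular T cells. They are 4 of the 13798 genes in the deposited expression matrix, and they were chosen from earlier results of the same data in which their levels by cluster and by condition were in view. Levels by cluster and condition are therefore given as a description, and tests are kept to other readouts. These are the clonotype of each cell, which genes are found together in a cell, and the other genes of cells that hold a member. The cells came from the spleens of C57BL/6 bone marrow chimeras and were sorted as CD3+CD4+ T cells that were CXCR5+PD-1+ and carried CD45.2 but not CD45.1. They were profiled by droplet 5′ RNA sequencing with a paired TCR library for every mouse. The 5 WT chimeras were irradiated mice that received congenic WT marrow and were immunized with NP-OVA in alum at week 6, to which the study's methods add a boost. The 5 mixed 564Igi chimeras received WT marrow mixed with marrow of 564Igi mice, which carry knocked-in heavy and light chains of a B cell receptor against ribonuclear complexes, and they were not immunized. All chimeras were taken 10 weeks after irradiation, so the 564Igi marrow and the lack of immunization cannot be told apart in any comparison of the conditions. Each condition held mice of both sexes. The labels do not say which marrow the sorted cells of a mixed chimera came from.

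MHC class II molecules present peptides from the endosomal pathway to CD4+ T cells and are made by B cells, dendritic cells and macrophages. Each molecule pairs an alpha with a beta chain in the endoplasmic reticulum around the invariant chain, which blocks the groove and directs the complex to endosomes, where proteases cut the invariant chain down and the editor H2-DM exchanges its last fragment for a peptide. Mouse T cells are commonly held to make little or no class II of their own, while they can take up class II molecules from presenting cells, which transfers protein rather than transcripts. Cd74 encodes the invariant chain, which also serves as a surface receptor for the cytokine MIF. H2.Aa and H2.Ab1 encode the alpha and beta chains of I-A, and H2.Eb1 encodes the beta chain of I-E, which lacks its alpha partner in mice of the H-2b haplotype such as C57BL/6.

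Class II genes share a promoter module, made of an X box bound by the RFX complex and a Y box bound by NF-Y, over which the coactivator CIITA assembles. The 250 bases before the start of H2.Aa and of H2.Eb1 are printed because both genes are found together in the same cells below. They come from RefSeq for the GRCm38.p6 build, 5′ to 3′ on the strand of the gene, and capitals mark the X core CTNGCAAC and the Y box CTGATTGG, 2 motifs that were chosen after these sequences had been seen and were searched on both strands.
H2.Aa, chr17:34287824-34288073, minus strand: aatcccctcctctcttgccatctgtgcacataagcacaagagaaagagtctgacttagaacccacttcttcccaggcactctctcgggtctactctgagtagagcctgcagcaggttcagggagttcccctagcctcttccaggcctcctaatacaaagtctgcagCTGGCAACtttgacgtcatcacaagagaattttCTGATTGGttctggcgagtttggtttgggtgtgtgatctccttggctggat
H2.Eb1, chr17:34305617-34305866, plus strand: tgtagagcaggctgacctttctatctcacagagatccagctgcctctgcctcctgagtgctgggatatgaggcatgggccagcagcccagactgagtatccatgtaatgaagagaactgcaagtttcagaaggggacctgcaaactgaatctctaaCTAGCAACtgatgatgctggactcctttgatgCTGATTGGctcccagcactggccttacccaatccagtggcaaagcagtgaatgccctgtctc
In H2.Aa the X core began 84 bases and the Y box 51 bases before the start of the gene, with 25 bases between the motifs. In H2.Eb1 the corresponding positions were 94 and 62 bases, with 24 bases between them. Of 32851 promoters of the same length, 2.84% held the X core, 3.83% held the Y box and 0.155% held both. The motifs do not overlap each other, and a match describes letters in this window only. H2.Ab1 and Cd74 had no entry in the table used.

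The matrix holds 28192 cells, 14965 from WT and 13227 from 564Igi chimeras, with 1121 to 4030 cells and 3424280 to 15241983 raw UMIs per mouse. A cell was counted as holding a gene when at least 1 UMI remained after the authors' correction for depth, which they made separately for each condition. The authors' 6 clusters were used as named: Tfr, the Foxp3+ follicular regulatory cells, with 11650 cells, activated Tfh with 11953, Sostdc1 Tfh with 2803, central memory Tfh with 725, effector Tfh with 682 and interferon-stimulated Tfh, called Tfh-ISG, with 379. Median depth was similar between Tfr and activated Tfh cells, at 3461 and 3547 raw UMIs. The B cell genes Cd79a, a component of the B cell receptor, and Ms4a1, which encodes CD20, were used to gauge how much B cell RNA had been carried over. The mean share of cells with Cd79a was 0.224% (WT) and 0.282% (564Igi), and with Ms4a1 it was 0.0431% and 0.0677%. The libraries shared 491 cell barcode sequences, and each cell was kept apart by its library. The libraries of mice 34 and 36 are numbered apart from the others in the labels, and leaving both out moved the condition differences in share given below by less than their spread between mice.

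Cd74 was found in most Tfr cells and in few cells of the Tfh clusters. The share of cells with Cd74, as a mean over mice, was 55.3% ± 5.91 (SD, n = 10) in Tfr, 29.9% ± 9.43 in Tfh-ISG (n = 8), 12.8% ± 6.08 in Sostdc1 (n = 10), 12.4% ± 10.5 in central memory (n = 8), 11.9% ± 2.99 in activated (n = 10) and 10.9% ± 4.17 in effector cells (n = 10). Tfr stood above Tfh-ISG in 8 of 8 mice with at least 20 cells of both clusters, and Tfh-ISG above Sostdc1 cells in 8 of 8, while the last 4 clusters in this order differed from their neighbours by less than the spread between mice. Within a mouse, the share was between 3.17 and 6.76 times higher in Tfr than in activated Tfh cells, and the higher share was in Tfr in 10 of 10 mice.

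The chain genes were rare in every cluster and highest on average in Tfr. At least 1 of H2.Aa, H2.Ab1 and H2.Eb1 was found in 4.69% ± 3.38 of Tfr cells (SD, n = 10), 3.49% ± 2.15 of Tfh-ISG (n = 8), 1.94% ± 1.95 of effector (n = 10), 1.76% ± 1.56 of Sostdc1 (n = 10), 1.73% ± 1.48 of central memory (n = 8) and 1.47% ± 0.669 of activated cells (n = 10). No neighbours in this order differed beyond their spread over mice. Tfr was above activated Tfh in 10 of 10 mice for H2.Aa and H2.Ab1 and in 9 of 10 for H2.Eb1. Cd79a, by comparison, was found in 0.321% ± 0.238 of Tfr and 0.178% ± 0.117 of activated cells and was higher in Tfr in 7 of 10 mice.

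**Figure D1:**
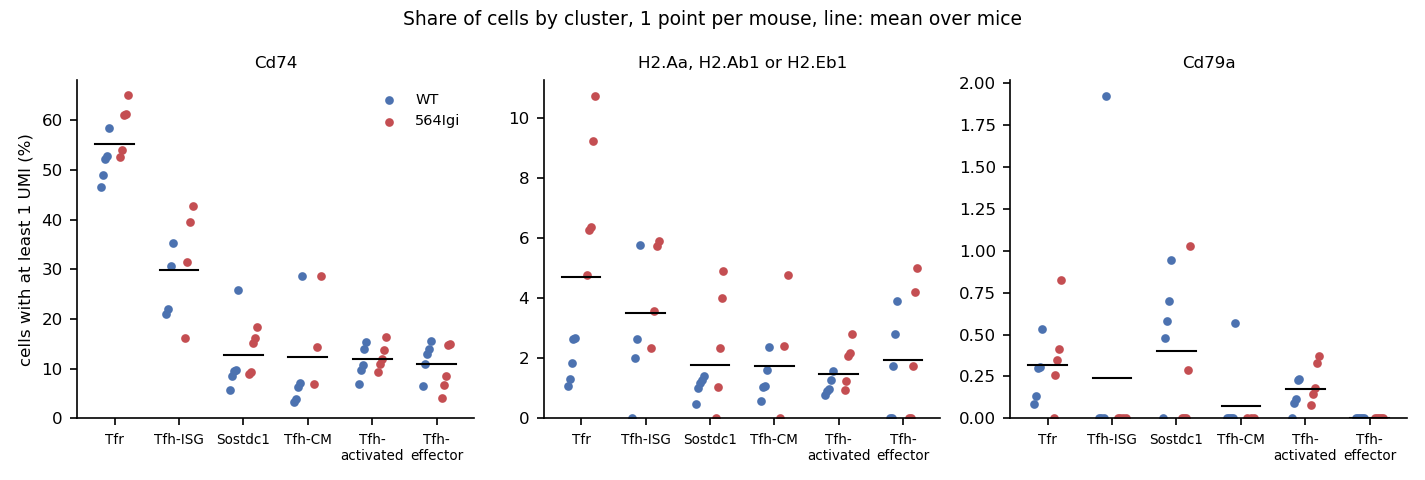
Share of cells with at least 1 UMI, in percent, by cluster for Cd74 (left), any of the 3 chain genes (middle) and the B cell gene Cd79a (right, on its own scale). Each point is a mouse with at least 20 cells of the cluster, blue for WT and red for 564Igi, and the black line is the mean over mice: Cd74 is at 55.3% in Tfr and 29.9% in Tfh-ISG, and between 10.9% and 12.8% in the other clusters.

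Between conditions, the chain genes were found in more Tfr cells of every 564Igi chimera than of any WT chimera. H2.Aa was found in 0.418%, 0.660%, 1.47%, 1.52% and 0.857% of Tfr cells in WT mice 11, 12, 14, 23 and 36. In 564Igi mice 13, 17, 21, 24 and 34 its share was 5.98%, 2.17%, 4.52%, 3.32% and 3.77%. The highest WT mouse was below the lowest 564Igi mouse, and the means were 0.985% ± 0.490 and 3.95% ± 1.42 (SD, n = 5 each).

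H2.Ab1, the beta chain that pairs with H2.Aa, was found in 0.502%, 0.858%, 1.47%, 1.29% and 0.980% of Tfr cells in the same WT mice and in 7.28%, 3.39%, 6.34%, 3.32% and 3.03% in the same 564Igi mice. Mice 13 and 21 were highest and the groups did not overlap, with means of 1.02% ± 0.378 and 4.67% ± 1.99. H2.Eb1, whose alpha partner is not made in this haplotype, was found in 0.418%, 0.396%, 1.20%, 1.14% and 0.674% of WT Tfr cells and in 5.63%, 1.82%, 4.34%, 2.55% and 2.76% of 564Igi Tfr cells. The groups did not overlap here either, with means of 0.766% ± 0.386 and 3.42% ± 1.54. For any of the 3 chains the mean share of Tfr cells was 1.91% ± 0.736 (WT) and 7.47% ± 2.42 (564Igi).

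For Cd74 the conditions overlapped in the share of Tfr cells that held it and did not overlap in its corrected UMIs per 10000. On log2(corrected UMI + 1), averaged over Tfr cells, they overlapped, with a WT maximum of 1.05 and a 564Igi minimum of 1.04. Its share among Tfr cells was 52.1%, 58.4%, 49.0%, 52.7% and 46.5% in WT mice 11, 12, 14, 23 and 36 and 65.0%, 54.1%, 61.1%, 61.2% and 52.7% in 564Igi mice 13, 17, 21, 24 and 34. The groups overlapped, with means of 51.8% ± 4.47 and 58.8% ± 5.24. Counted instead as corrected UMIs per 10000 in Tfr cells, Cd74 stood at 4.36, 5.50, 4.34, 4.53 and 4.54 in the WT mice and at 8.88, 6.29, 8.01, 6.91 and 6.73 in the 564Igi mice, and these values did not overlap. Tfr cells with Cd74 held 3.01 to 3.34 corrected UMIs of it on average in WT and 3.85 to 5.03 in 564Igi mice.

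In activated Tfh cells the levels were lower and the groups mostly overlapped. H2.Aa was found in 0.177%, 0%, 0.231%, 0.566% and 0.356% of activated cells in WT mice 11, 12, 14, 23 and 36, where the 0 of 878 cells in mouse 12 allows a share of up to 0.342%, and in 1.12%, 0.598%, 0.696%, 0.719% and 0.581% in 564Igi mice 13, 17, 21, 24 and 34. The lowest 564Igi mouse was above the highest WT mouse by a small margin. H2.Ab1 averaged 0.462% ± 0.106 and 1.01% ± 0.564, H2.Eb1 averaged 0.408% ± 0.233 and 0.614% ± 0.336, and Cd74 averaged 11.4% ± 3.43 and 12.5% ± 2.75 in WT and 564Igi activated cells, and for these genes the groups overlapped. Cd79a did not separate the conditions in Tfr cells, with a range of 0.0837% to 0.535% in WT and 0% to 0.827% in 564Igi mice.

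The 3 chain genes were chosen with this contrast in view, so the counts of genes that separated the conditions in the same way serve as background and nothing is read from them. Every 564Igi mouse was above every WT mouse in the share of cells for 0.307% of the 12366 genes tested in Tfr cells, 0.228% of 12255 in activated Tfh cells and 0.233% of 12420 in all cells. In corrected UMIs per 10000 the corresponding figures were 0.267%, 0.188% and 0.193%. Of the members, 3 separated the conditions by share in Tfr cells, 1 did so in activated cells, and Cd74, H2.Ab1 and H2.Eb1 separated them by UMIs per 10000 in Tfr cells. H2.Aa did not separate them on that scale, since 564Igi mouse 24 stood at 0.150 and WT mouse 36 at 0.170 UMIs per 10000. On log2(corrected UMI + 1), averaged over cells, the mean difference in Tfr cells, 564Igi minus WT, was 0.29 for Cd74 and 0.05, 0.05 and 0.04 for H2.Aa, H2.Ab1 and H2.Eb1, given without a test.

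**Figure D2:**
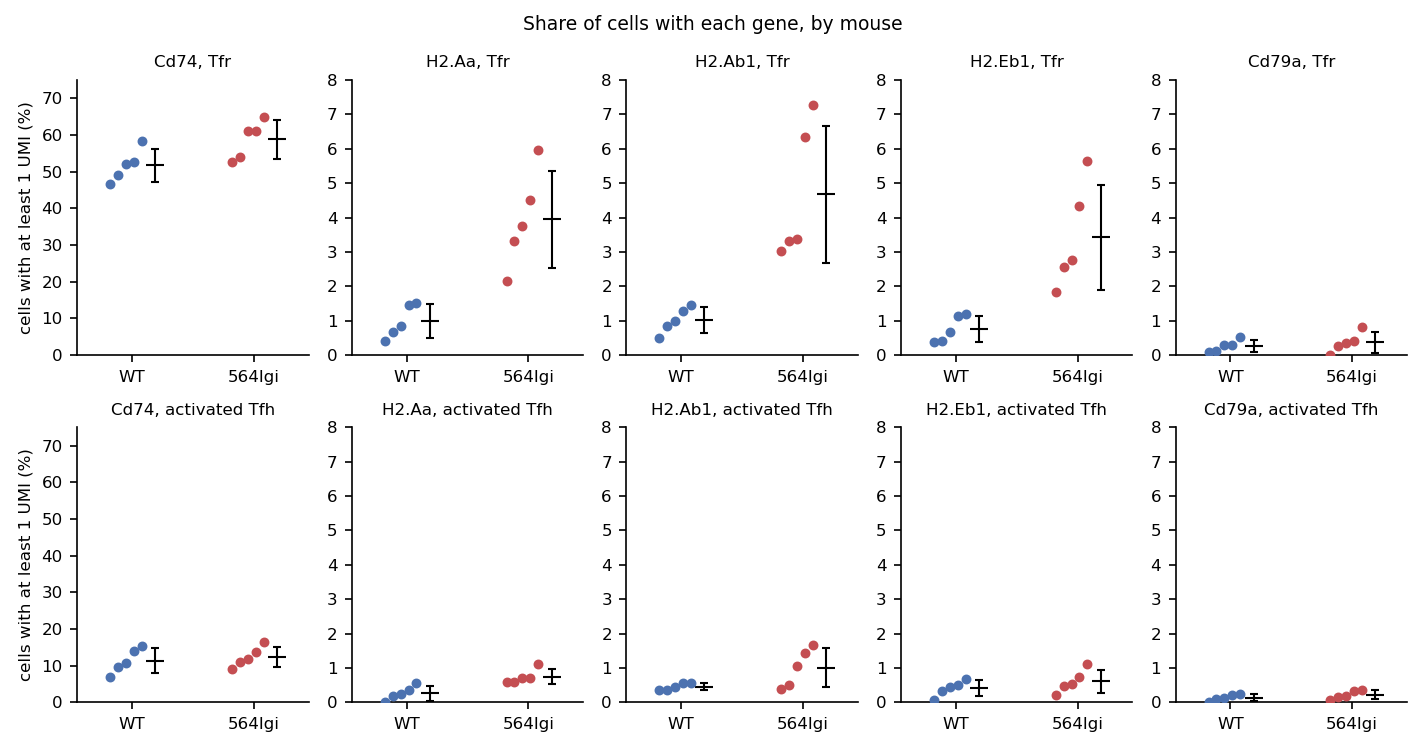
Share of cells with at least 1 UMI, in percent, for the 4 members and Cd79a in Tfr cells (top) and activated Tfh cells (bottom). Each point is a mouse (5 WT in blue, 5 564Igi in red), and the black bar gives the mean and SD. The chain genes of the 5 564Igi mice lie above all WT mice in Tfr cells, while Cd74 overlaps.

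Most cells with a chain gene held a single UMI of it, and a minority held many. Of the 798 cells with any chain, 481 held 1 UMI over the 3 genes, 195 held 2 to 4 and 122 held 5 or more, of which 16 came from WT and 106 from 564Igi chimeras. The cell with most held 179 chain UMIs, and Cd74 reached 251 in a cell. The 10 brightest cells held 32.6% of all H2.Aa UMIs, 29.6% of those of H2.Eb1 and 18.5% of those of H2.Ab1, against 4.35% for Cd74. Without the cells of 5 or more chain UMIs, an alternative chosen after seeing the data, the condition difference in Tfr cells was 1.60 percentage points for H2.Aa instead of 2.96, and 1.26 instead of 2.66 for H2.Eb1.

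As the chain UMIs rose, the cells were more often Tfr, and they more often held Cd74 and genes of B cells. Cells without a chain were Tfr in 40.6% of cases, cells with 1 UMI in 55.9%, with 2 to 4 in 75.4% and with 5 or more in 91.8%. Cd74 was found in 28.3%, 59.9%, 92.8% and 100% of the same classes. A paired TCR was listed for 75.9%, 76.5%, 78.5% and 72.1%, and the CD3 genes Cd3e, Cd3d and Cd3g, which encode the signalling part of the TCR, were all found in 97.6%, 96.7%, 96.4% and 87.7%. Median depth in these classes was 3527, 4167, 4339 and 4440.5 raw UMIs. The classes pool cells over mice and conditions, so their shares also differ with condition and depth and carry no test.

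Within a mouse and cluster, the members were found together. Chain genes were found in 6.89% ± 4.42 of cells with Cd74 and in 1.07% ± 0.559 of cells without it, where the cells without Cd74 were weighted to the same clusters, and the share was higher with Cd74 in 10 of 10 mice (p = 0.00195, two-sided exact sign flips over mice, the smallest p that 10 mice allow). The 5 WT mice ranged from 0.213% to 1.08% without Cd74 and from 1.89% to 4.76% with it, and the 5 564Igi mice from 0.746% to 2.10% without and from 7.22% to 14.03% with it. The difference was 5.74 percentage points when cells were compared within 5 classes of raw depth and 5.81 without that step.

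The chain genes also went with each other. H2.Ab1 was found in 40.7% of cells with its partner H2.Aa and in 1.32% of cells without it, and H2.Eb1, from the other isotype, in 34.5% and 0.756%. Each of the 6 ordered pairs of chains gave a higher share in 10 of 10 mice (exact sign-flip p = 0.00195 for each). All 3 chains were found in 119 cells, a pair of them in 138, and a single chain in 541, of which 236 held H2.Ab1, 170 H2.Aa and 135 H2.Eb1.

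**Figure D3:**
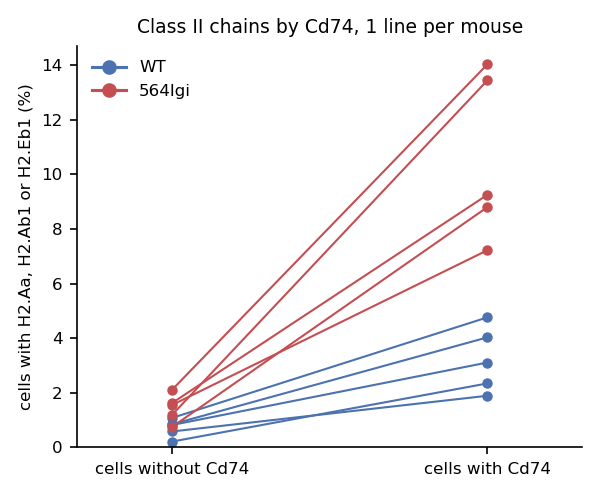
Share of cells with any of H2.Aa, H2.Ab1 and H2.Eb1, in percent, among cells without and with Cd74, within clusters. Each line joins the values of 1 mouse (blue for WT, red for 564Igi), and all 10 lines rise, ending at 1.89% to 4.76% (WT) and 7.22% to 14.03% (564Igi).

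Cd74 was found more often in cells with Foxp3, which encodes the defining factor of regulatory T cells, and for the chain genes no such difference passed the test. In Tfr cells Cd74 was found in 62.4% ± 6.02 of cells with Foxp3 and 46.3% ± 6.33 of cells without a Foxp3 UMI, higher in 10 of 10 mice (exact sign-flip p = 0.00195). In activated Tfh cells the shares were 33.96% and 10.4%, again in 10 of 10 mice with the same p. The chain genes were found in 4.65% ± 3.48 of Tfr cells with Foxp3 and 4.77% ± 3.55 of those without, higher in 5 of 10 mice (exact sign-flip p = 0.834). In activated Tfh cells they were found in 2.52% ± 1.93 and 1.40% ± 0.618, higher in 7 of 10 mice (exact sign-flip p = 0.0625). Cells in which no Foxp3 UMI was read can still express it.

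Genes of other cell types were read in the cells with a chain gene, against other cells of the same mouse and cluster. Lists of marker genes were summed as corrected UMIs per 10000. T cell genes remained high, with 57.5 in cells with a chain and 66.9 in the others, and were lower in 10 of 10 mice (two-sided exact sign flips, p = 0.00195). Cd3e was found in 97.5% of cells with a chain and 99.4% of the others. The list of B cell genes, of which 11 of 14 are in the matrix, stood at 1.31, with a range over mice of 0.553 to 3.66, against 0.487, with a range of 0.374 to 0.581. It was higher in 10 of 10 mice (exact sign-flip p = 0.00195).

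Within the B cell list Cd79a and Ms4a1 were rare. Cd79a was found in 0.959% of cells with a chain and 0.270% of the others, higher in 4 of 10 mice (exact sign-flip p = 0.256), and Ms4a1 in 1.05% and 0.0495%, higher in 5 of 10 (exact p = 0.0625). Cd22, an inhibitory receptor of B cells, was found in 7.19% and 4.48% (exact p = 0.0137), the B lineage factor Pax5 in 2.43% and 0.781% (exact p = 0.0469) and the adaptor Bank1 in 1.97% and 0.377% (exact p = 0.00391). Counted over all cells, 9 of the 798 cells with a chain held Cd79a or Ms4a1, which is 1.13% against 0.281% of the others.

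The list of macrophage and monocyte genes, of which 7 of 9 are in the matrix and Adgre1 and C1qc are not, stood at 4.38 against 0.237, higher in 8 of 10 mice (exact sign-flip p = 0.0137). Its range in cells with a chain was 0.0661 to 24.4, and the highest 3 mice were WT mouse 14 at 24.4, WT mouse 12 at 10.9 and 564Igi mouse 17 at 4.26. Of the 7 genes, Cd68, a lysosomal protein, was found in 6.79% against 3.59% of cells (exact p = 0.00781). Lyz2, which encodes lysozyme, was found in 1.87% against 0.195%, and the signalling chain Fcer1g in 1.97% against 0.0776% (exact p = 0.0312 for both). Tyrobp was found in 1.87% against 0.0932% (exact p = 0.0625) and Csf1r in 0.605% against 0.0371% (exact p = 0.5). C1qa stood at 0.102% against 0.0195% and C1qb at 0.189% against 0.0367%, each higher in 1 of 10 mice. Dendritic cell genes stood at 4.28 and 3.1 (exact p = 0.170), with 5 of 9 in the matrix and Flt3, Clec9a, Siglech and Clec10a not. Germinal centre B cell genes stood at 1.27 and 0.930 (exact p = 0.00781), plasma cell genes at 0.248 and 0.223 with Jchain at 0 (exact p = 0.553), CD8 T and NK cell genes at 0.415 and 0.284 (exact p = 0.0273), and erythroid genes at 0.00734 and 0.0213 with Hba.a1 at 0 (exact p = 0.0781). Follicular genes stood at 16.2 and 14.98 (exact p = 0.0742) and regulatory T cell genes at 25.6 and 27.3 (exact p = 0.119).

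Cells with a chain were also deeper, with a mean of 4736 raw UMIs against 3959, higher in 10 of 10 mice (exact sign-flip p = 0.00195), and 73.9% of them against 76.9% had a paired TCR (exact p = 0.147). The study's methods name no dedicated step that removed droplets holding 2 cells. They do state a targeted rate of such droplets and left out cells above an upper limit of genes detected. The part of such droplets in these results was not tested. In an alternative chosen after seeing the data, every cell that held a gene of the B cell or the macrophage list was left out. The share of cells with a chain then differed between cells with and without Cd74 by 5.01 percentage points (exact sign-flip p = 0.00195). The condition difference for any chain in Tfr cells, given without a test, was 4.96 percentage points instead of 5.55. A droplet with foreign RNA can show none of these genes, and the dendritic cell list was not used. The part of such RNA was therefore not tested.

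The UMIs of the members were also set against those of Cd79a, summed over the mice of a condition. In Tfr cells 363 Cd74 UMIs were read for each Cd79a UMI in WT and 361 in 564Igi chimeras, from 29 and 40 Cd79a UMIs. In activated Tfh cells the ratios were 114 and 86.8, from 9 and 16 Cd79a UMIs. For the 3 chain genes the ratios to Cd79a were 16.2 in WT and 46.4 in 564Igi Tfr cells and 8.56 and 11.3 in activated cells. These ratios rest on few Cd79a UMIs, pool mice and carry no test.

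Among Tfr cells, those with Cd74 held more transcripts of Il1r2, Cyba, Cd52 and of 3 costimulatory receptors of the TNF receptor family. The contrast was taken within each mouse between cells with and without a Cd74 UMI and fitted with limma across all genes on log2(corrected UMI + 1), with Benjamini-Hochberg adjustment. Of 12365 genes, 10.7% were called higher and 1.78% lower at an adjusted p of 0.05. The genes with the largest differences among 610 that were called and higher in all 10 mice were led by Il1r2, the decoy receptor of interleukin 1, at a level of 0.88 with and 0.38 without Cd74 (difference 0.50, SE 0.03, limma adjusted p = 2.73e-05). Cyba, a subunit of the NADPH oxidase, was higher by 0.48, the surface glycoprotein Cd52 by 0.45, the histone variant H2az1 by 0.45 and the tetraspanin Cd81 by 0.42. The regulatory T cell genes Foxp3, Ikzf2, Ctla4 and Il2ra were also called higher, by 0.28, 0.17, 0.13 and 0.04. Il1r2 and Tnfrsf18 were themselves higher in Tfr than in activated Tfh cells, at mean levels of 0.66 against 0.12 and 1.41 against 0.63. Whether the contrast follows how Tfr-like a cell is was not tested.

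Of the costimulatory receptors, Tnfrsf9, which encodes 4-1BB, was higher by 0.41, Tnfrsf4, which encodes OX40, by 0.33, and Tnfrsf18, which encodes GITR, by 0.29. Il2rg, the common gamma chain of cytokine receptors, was higher by 0.29, as was AW112010. The 10 genes with the largest differences downwards, of 90 that were lower in all 10 mice, moved less. S100a11 was lower with a difference of -0.14, Eif1, a translation initiation factor, with -0.14, Angptl2 with -0.13, the anergy-associated factor Egr2 with -0.13, the mRNA decay factor Zfp36 with -0.13 and Cd40lg, the helper ligand for B cells, with -0.12. Hmgb1, Cd3e, Rps27 and Cd28, the receptor of the B7 molecules, were lower with differences between -0.12 and -0.11. Tfr cells with Cd74 had 4086 raw UMIs on average and those without 3790, higher in 10 of 10 mice (exact sign-flip p = 0.00195), and compared within 5 classes of depth 954 genes were called in place of 1537.

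In activated Tfh cells, where few cells held Cd74, 1.93% of genes were called higher and 0.653% lower. The largest differences upwards, of 147 genes higher in all 10 mice, included Ikzf2, the regulatory T cell factor Helios (0.37, SE 0.04, limma adjusted p = 0.00228), Ly6e (0.31) and Foxp3 (0.22, SE 0.03, limma adjusted p = 0.00483). Cyba (0.28), Tnfrsf4 (0.24), Cd52 (0.24), H2az1 (0.23) and Tnfrsf9 (0.20) were among the 10 in both clusters. Lcp1, which bundles actin, was higher by 0.19, and so was H2.K1, a class I MHC heavy chain. Of the 10 genes with the largest differences downwards, 9 encode ribosomal proteins, from Rplp1 at -0.15 to Rps18 at -0.13, and the other was Dennd2d at -0.15. The number of genes called here depended on single mice, from 104 without WT mouse 23 to 335 without WT mouse 14, against 316 with all.

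**Figure D4:**
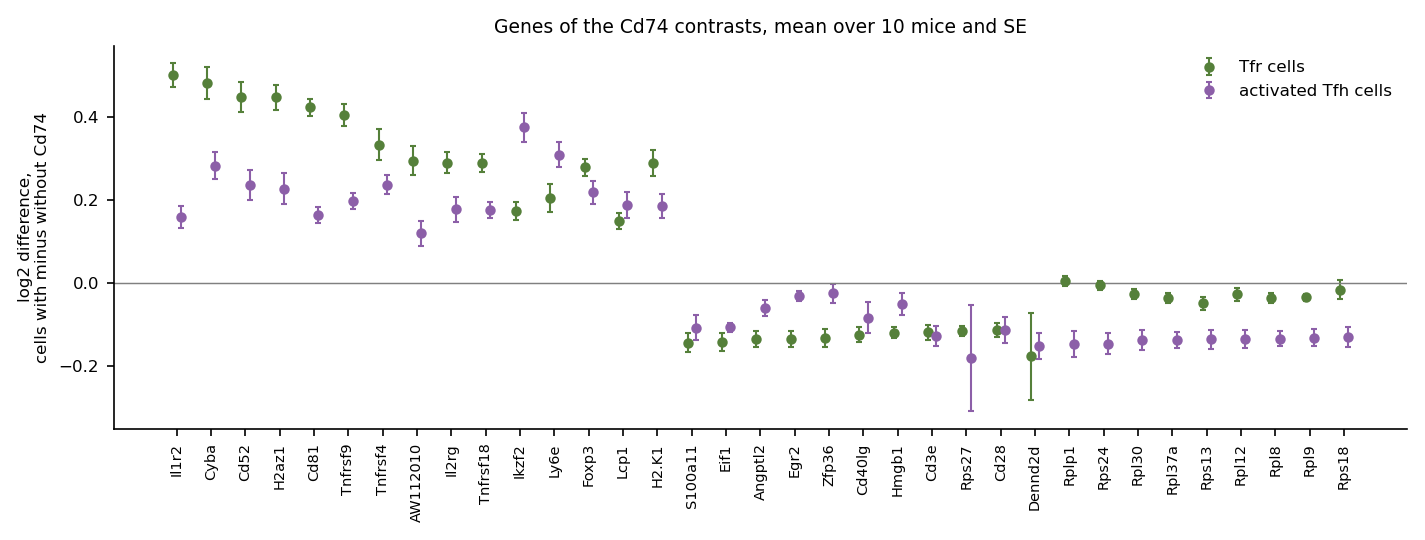
Difference in mean log2(corrected UMI + 1) between cells with and without Cd74, for the genes with the largest differences in Tfr cells (green) or activated Tfh cells (purple). Points are means over 10 mice and bars are SE; Il1r2 stands at 0.50 and Cyba at 0.48 in Tfr cells, and Ikzf2 at 0.37 in activated cells.

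The chain genes rose with Cd74 in the same fits. In Tfr cells H2.Aa was higher by 0.06 (SE 0.01, limma adjusted p = 0.0149), H2.Ab1 by 0.06 (SE 0.01, adjusted p = 0.0217) and H2.Eb1 by 0.05 (SE 0.01, adjusted p = 0.0299), so that 3 of 3 were called against the 10.7% of all genes. The call of H2.Eb1 was lost without 564Igi mouse 17, 24, 21 or 34, with adjusted p between 0.0529 and 0.0608. In activated cells the differences were 0.03, 0.03 and 0.02 and 0 of 3 were called, with limma adjusted p between 0.0772 and 0.156, while 3 of 3 had an unadjusted p under 0.05. In the reverse contrast, between cells with and without any chain gene, 0.0161% of 12417 genes were called. These were Cd74, at 2.01 with and 0.67 without a chain (difference 1.34, SE 0.09, limma adjusted p = 0.000351), and Slc2a6, a lysosomal hexose transporter (0.09, SE 0.01, adjusted p = 0.0193).

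Tfr cells of expanded clonotypes held a chain gene more often than Tfr cells whose clonotype was seen once, by 2.49 percentage points over all 10 mice, higher in 8 of 10 (two-sided exact sign-flip p = 0.0156). A clonotype was the pair of CDR3 alpha and beta sequences within a mouse, and expanded clonotypes had at least 2 cells. Cells were counted over the whole TCR library of the mouse, including cells of other clusters and cells not in the expression matrix. An expanded Tfr cell can therefore be the only Tfr cell of its clonotype. The exact values behind the choice of the genes are not recorded, so its independence from clone size cannot be checked. For Cd74 in Tfr cells of these chimeras, the paper already reported a strong link with clonal expansion, by correlation over cells and confined to autoimmune chimeras. In 564Igi mice 13, 17, 21, 24 and 34 any chain gene was found in 6.92%, 1.71%, 7.49%, 4.07% and 2.22% of singleton Tfr cells and in 11.97%, 5.23%, 10.1%, 8.87% and 10.0% of expanded ones. The share was higher in expanded cells in 5 of 5 mice, by 4.75 ± 1.98 percentage points (SD). In WT mice 11, 12, 14, 23 and 36 it was 0.873%, 0.353%, 2.44%, 1.83% and 1.44% in singletons and 1.31%, 1.06%, 1.71%, 2.83% and 1.19% in expanded cells, higher in 3 of 5, by 0.233 ± 0.708. The differences in percentage points did not overlap between the conditions, but they start from shares that already differed, 1.39% of singletons in WT and 4.48% in 564Igi mice, and the genes were chosen by condition, so this carries no test. As a ratio of expanded to singleton share, computed after seeing the data, the values ran from 0.703 to 2.99 in WT and from 1.34 to 4.51 in 564Igi mice and overlapped.

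Over all 10 mice the share in expanded less that in singleton cells was 1.19 percentage points for H2.Aa (higher in 8 of 10, exact sign-flip p = 0.0195), 1.35 for H2.Ab1 (8 of 10, exact p = 0.0234) and 1.60 for H2.Eb1 (9 of 10, exact p = 0.0273). For Cd74 it was 3.54 (7 of 10, exact sign-flip p = 0.148). These 5 tests, of the 4 genes and of any chain, are not adjusted for their number. Without cells that held a B cell or macrophage gene the differences were 1.03 for H2.Aa (exact p = 0.0625), 0.974 for H2.Ab1 (exact p = 0.0723), 1.43 for H2.Eb1 (exact p = 0.0508) and 1.93 for any chain (exact p = 0.0312), so the call was lost for each single chain. The difference for H2.Aa was 0.751 without 564Igi mouse 34 (exact p = 0.0391). The call of H2.Eb1 was also lost without any 1 of the 564Igi mice (exact p = 0.0547). For Cd79a the difference over all mice was 0.0408 (exact sign-flip p = 0.637).

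By condition, given without a test, H2.Aa differed between expanded and singleton cells by 2.32 percentage points in 564Igi and 0.0678 in WT mice, H2.Ab1 by 2.61 and 0.0793, H2.Eb1 by 3.18 and 0.0293, and Cd79a by 0.183 and -0.102. As ratios, H2.Ab1 ran from 0.440 to 3.003 in WT and from 1.34 to 7.62 in 564Igi mice, which overlapped. H2.Aa ran from 0.501 to 1.20 and from 1.21 to 5.64, and H2.Eb1 from 0.390 to 1.65 and from 2.15 to 7.19, without overlap, but 1 WT mouse had no singleton with the gene in each case and gave no ratio.

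Cd74 was found in 61.6%, 46.6%, 57.7%, 52.8% and 47.8% of singleton Tfr cells of 564Igi mice 13, 17, 21, 24 and 34, and in 65.8%, 56.0%, 63.4%, 66.0% and 57.1% of expanded ones. The share rose in 5 of 5 mice, by 8.36 ± 3.498 percentage points (SD). In WT mice 11, 12, 14, 23 and 36 the shares were 49.8%, 57.2%, 44.9%, 57.6% and 51.3% in singletons and 55.6%, 57.1%, 49.1%, 49.9% and 42.6% in expanded cells, which was higher in 2 of 5, with a mean difference of -1.28 ± 6.67. These groups of differences overlapped, as did the ratios of expanded to singleton share, from 0.831 to 1.12 in WT and from 1.07 to 1.25 in 564Igi mice.

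In 564Igi mice the mean share with any chain rose with each class of clone size, but only mice 17 and 34 rose at every step. The mean was 4.48% ± 2.64 of Tfr cells in clonotypes of 1 cell, 6.84% ± 3.42 of 2 to 4, 10.0% ± 3.40 of 5 to 10 and 12.1% ± 6.45 of over 10 cells (SD, n = 5). In WT mice the corresponding shares were 1.39% ± 0.813, 1.17% ± 0.531, 2.30% ± 0.509 and 1.60% ± 1.09. Cd74 stood at 53.3%, 52.6%, 64.3% and 67.1% in 564Igi and at 52.1%, 51.8%, 48.4% and 51.8% in WT mice. Cd79a stood at 0.270%, 0.214%, 0.109% and 1.04% in 564Igi and at 0.284%, 0.222%, 0.149% and 0.172% in WT mice, so that it too was highest in 564Igi clonotypes of over 10 cells, with an SD of 1.12 there. The part of B cell RNA in the shares of that class was not tested. For any chain, 564Igi mouse 13 fell from 11.24% in clonotypes of 2 to 4 cells to 8.43% in those of 5 to 10. From clonotypes of 5 to 10 to those of over 10 cells, mouse 21 fell from 11.96% to 10.56% and mouse 24 from 14% to 6.10%. The highest share, 21.7% in clonotypes of over 10 cells of mouse 34, rested on 15 of 69 cells. Every 564Igi mouse was higher in clonotypes of over 10 cells than in singletons.

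**Figure D5:**
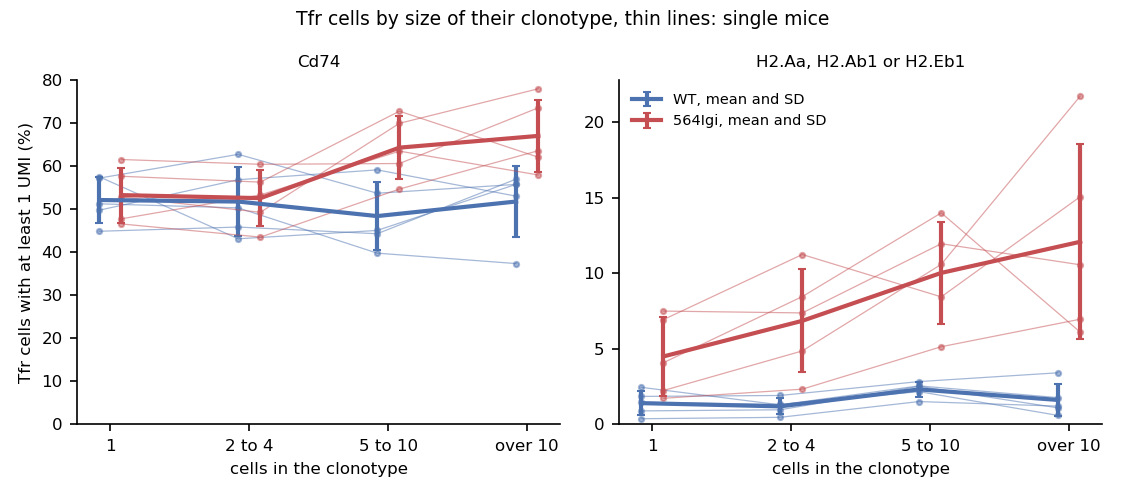
Share of Tfr cells with at least 1 UMI, in percent, of Cd74 (left) and of any of the 3 chain genes (right) by the number of cells in the clonotype. Clonotype size was counted over all cells of the mouse's TCR library, in any cluster. Thin lines are single mice and thick lines are the mean and SD of 5 mice (blue for WT, red for 564Igi): the 564Igi mean for any chain goes from 4.48% in clonotypes of 1 cell to 12.1% in those of over 10, and the WT mean stays between 1.17% and 2.30%.

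The cells with a chain came from many clonotypes in most mice. In 564Igi mouse 13, 131 such Tfr cells with a TCR belonged to 80 clonotypes, in mouse 21 there were 90 in 63 and in mouse 24 there were 23 in 20. In mice 17 and 34 a single clonotype held 13 of 41 and 11 of 38 of these cells, while it made up 14.8% and 4.58% of their Tfr cells with a TCR. In WT mice there were 9 to 28 such cells, and all belonged to different clonotypes except in mouse 23, where a clonotype held 5 of 28. Without the leading clonotype of each mouse, expanded and singleton cells differed in the share with any chain by 1.79 percentage points over all 10 mice (exact sign-flip p = 0.0215). The shares by class of clone size are not given without that clonotype.

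Across all genes, expanded Tfr cells differed from singletons in 0.325% of 12326 genes, or 40. That count fell to 0 without WT mouse 12, WT mouse 23 or 564Igi mouse 17, lay at 31 or lower without any 1 mouse, and was 8 when cells were compared within 5 classes of depth. H2.D1 and H2.K1, both class I MHC heavy chains, were higher by 0.15 (SE 0.02, limma adjusted p = 0.0203) and 0.14 (SE 0.02, adjusted p = 0.0378), and the transcription factor Maf by 0.09. Cd96, a receptor of the nectin-binding family, was lower with a difference of -0.07. Of the 4 members 0 were called, with limma adjusted p between 0.276 and 0.324, and 4 of 4 had an unadjusted p under 0.05. For the clone size difference between conditions 0% of 12326 genes were called by limma and 730 had an unadjusted p under 0.05, and with clonotypes of 5 or more cells against singletons 2 genes were called.

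The wider class II pathway was read from a list of genes, of which 30 are in the matrix and H2.Ea, Ifi30 and Marchf1 are not. In Tfr cells with Cd74, 11 of 29 tested genes were called higher and 2 lower, against 10.7% and 1.78% of all genes, and their median difference was 0.011 against 0.003 for all genes. Of the genes that process the invariant chain, Ctss, the cathepsin that makes its last cuts, was higher by 0.23 (SE 0.02, limma adjusted p = 0.000197) and Ctsl by 0.03, while Ctsd was lower with a difference of -0.05. Of the peptide editors, H2.DMa was higher by 0.07 and H2.DMb1 and H2.DMb2 by 0.01 each, and so was H2.Oa, part of the H2-O inhibitor of H2-DM, by 0.05. Cd83, which protects class II from degradation, was higher by 0.25 (SE 0.02, limma adjusted p = 0.00012). Of the promoter factors, Creb1, Rfx5 and Rfxank were higher by 0.04, 0.02 and 0.01, and Cd40 was higher by 0.01. Cd4, the coreceptor that binds class II, was lower with a difference of -0.06. In mean share of cells, these genes differed in the same direction between Tfr and activated Tfh cells. Cd83, for example, was found in 51.1% of Tfr and 17.2% of activated cells, Ctss in 59.2% and 46.7%, and Cd4 in 58.8% and 74.5%. How far their differences follow how Tfr-like a cell is was not tested. Counts for this list are not given within classes of depth, where the fit called 954 genes in place of 1537.

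In activated cells with Cd74, 2 of 27 were called higher, H2.Oa (0.04, limma adjusted p = 0.0347) and the endosomal protease Lgmn (0.04, adjusted p = 0.0499), and Cd4 was lower with a difference of -0.09 (adjusted p = 0.0244), against 1.93% higher and 0.653% lower of all genes. Between conditions in Tfr cells only Cd86, a B7 ligand of CD28, was called among the 29, where limma called 0.0485% of all genes. Its share of Tfr cells was 2.72% ± 0.697 (WT) and 0.863% ± 0.229 (564Igi), without overlap (difference -0.02, limma adjusted p = 0.0237). Without the trend this fit called 0 genes, so the call was lost. The share of Cd86 was also lower in 564Igi mice outside Tfr cells. Over all cells it was 1.76% (WT) and 0.617% (564Igi), without overlap, and in activated cells 0.851% and 0.257%, with overlap. Ciita, the coactivator that class II promoters need, had a share of 0.323% ± 0.121 (WT) and 0.680% ± 0.363 (564Igi). The groups overlapped, with 4 of 5 564Igi mice above every WT mouse. Its partners were read more widely, with Rfx5 in 5.24% and Nfyb in 24.6% of Tfr cells. Ctss was found in 59.2%, H2.DMa in 22.3% and H2.DMb1 in 0.786% of Tfr cells, and Mif, the ligand of the invariant chain, in 77.7%. By limma, 0 of 27 genes of the list were called between conditions in activated cells, where 0.0163% of all genes were, and 0 of 29 in all cells, where 0.0322% were, against 531 and 501 genes with an unadjusted p under 0.05 in the whole fits. In the fit of the Tfr minus activated difference between conditions 0% of 12383 genes were called, with 859 at an unadjusted p under 0.05. Clone size and the presence of a chain gene also called 0 of 29 genes of the list, against 1864 and 1681 in the whole fits at an unadjusted p under 0.05.

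The gene whose level followed Cd74 most closely was Foxp3. Over 56 means of a cluster in a mouse, Pearson's r with Cd74 was 0.95 for Foxp3, 0.91 for Ncmap, 0.90 for Tnfrsf18, and 0.89 each for the chemokine receptor Ccr8 and Il1r2. For H2.Aa, H2.Ab1 and H2.Eb1 it was 0.64, 0.68 and 0.65. These points share mice, libraries and the clusters that were built from the same genes, so the values describe the pattern and carry no test.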

How the data were processed

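Sorted splenic follicular T cells of 10 chimeras were profiled with a 5′ RNA and a TCR library per mouse. The authors aligned the reads with Cell Ranger 4.0.0 to GRCm38 (mm10), filtered cells in Seurat 3.1.4, removed receptor genes and ran sctransform on each condition separately, regressing out mitochondrial, ribosomal and heat shock content and UMI number. The deposited expression values are the natural log of the corrected UMI count plus 1, and the inverse gave whole numbers for 100% of values (tolerance 1e-06). Corrected totals ran from 2804 to 4591 per cell, so raw depth differences are largely taken out of the shares and a share depends on a correction made apart for each condition. The deposited cell table also holds raw counts of UMIs per cell, which were used for depth, and percent of mitochondrial and ribosomal UMIs and module scores, which the authors computed and which were not used. TCR calls were matched by mouse and barcode for 21405 cells, and every TCR cell listed 1 alpha and 1 beta chain.

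Means per mouse of log2(corrected UMI + 1) were fitted with limma 3.58.1 (trend, R 4.3.3) over genes found in at least 0.1% of cells, called at a Benjamini-Hochberg adjusted p of 0.05. Mice with at least 20 cells of a class entered (10 for cells with a chain gene). Single values were tested by two-sided exact permutation or sign flips over mice, computed directly in Python 3.11.15 with numpy 2.4.6. The fits were tested on simulated data. Alternatives changed the threshold, the filter, the trend, the scale (pseudocounts of 1 and 10), sex as a covariate, depth (corrected counts thinned to 2800), the cells and the mice.

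The members and lists were chosen with earlier results of these data known. Tests of members between conditions, and of their clone size difference between conditions, had been planned and are not reported, because the choice used that contrast. Named genes were the members, Cd79a, Ms4a1, the pathway list, for each contrast the 10 genes per direction with the largest difference among those called and of the same sign in every mouse, and the 5 most like Cd74. Some named genes are not reported here.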

Additional observations from a re-analysis of the deposited data

Results flagged for a closer look

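H2.Aa in activated Tfh cells of 564Igi mouse 13 was found in 1.12% of cells, far from the other 4 mice of the group, which lay between 0.581% and 0.719%. Of 24 groups of mice looked at in this way chance would be expected to single out about 1 in 20.

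The difference in share between expanded and singleton Tfr cells was larger in 564Igi than in WT mice, by 9.64 percentage points for Cd74, 2.25 for H2.Aa, 2.54 for H2.Ab1, 3.15 for H2.Eb1 and 4.52 for any of the 3 chains. No p is given, because the genes were chosen by condition and the chain genes started from higher shares in 564Igi mice. As ratios of expanded to singleton share the conditions overlapped for Cd74, H2.Ab1 and any chain.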

How the results depend on the processing

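No paired analysis was possible because replicate numbers follow accession order and pair no mice. No called result changed sign. The condition difference in the share with Cd74 over all cells, 1.76 percentage points with no test, was -0.553 without 564Igi mouse 13. The condition fits called 4 genes in all cells, 6 in Tfr and 2 in activated Tfh cells. In the same order, a stricter call (adjusted p of 0.01 and a log2 difference over 0.2) gave 1, 1 and 1, and leaving out the trend 1, 0 and 0. No filter gave 2 in all cells and 3 in Tfr. Log2 of CPM plus 1 gave 15 in Tfr and 4 in activated cells, and plus 10 gave 11 in Tfr. In activated cells, a filter at 1% gave 4 and leaving out mice 34 and 36 gave 1. The cluster by condition fit, with 0, gave 1 with CPM plus 10. Clone size, with 40, gave 0 with the stricter call, 73 with a filter at 1%, 15 with no filter, 89 without the trend, 8 within 5 classes of depth and 80 with clonotypes of 5 or more cells. Clone size by condition, with 0, gave 1 with no filter and 2 with clonotypes of 5 or more cells. Cd74 in Tfr, with 1537, gave 23 with the stricter call and 954 within 5 classes of depth, and in activated cells, with 316, the stricter call gave 5. Class II detection, with 2, gave 1 with the stricter call, 1 with a filter at 1%, 61 without the trend, 17 within 5 classes of depth and 4 with at least 2 UMIs. Without the leading clonotype, the clone size by condition difference for Cd74, 9.64, was 8.19. The cause was not tested for any of these.

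Leaving out each mouse in turn, the counts ran from 2 to 7, 3 to 10 and 1 to 2 for condition in all, Tfr and activated cells, 0 to 1 for cluster by condition, 0 to 31 for clone size (0 without WT mouse 12, WT mouse 23 or 564Igi mouse 17), 0 to 0 for clone size by condition, 1244 to 1534 and 104 to 335 for Cd74 in Tfr and activated cells, and 1 to 4 for class II detection. The share of Tfr cells with Cd74 differed by clone size by 2.47 to 4.90 percentage points (exact p from 0.0469 to 0.289) and by clone size and condition by 7.80 to 11.4, given without a test. The condition difference in the share with Cd74 in all cells ran from -0.553 to 4.41.

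Over all genes, clone size gave 1864 genes and class II detection 1681 with an unadjusted p under 0.05. The exclusion of cells with several TCR chains was not run because no cell listed more than 1 pair. Of cells with a chain, 60.3% held 1 UMI.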
